A study of Mus musculus with 8 samples.

Results

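The potassium channel genes of pancreatic islets were taken as every gene of the count table whose symbol starts with *Kcn*, together with *Abcc8* and *Abcc9*, the sulfonylurea receptors of ATP-sensitive potassium (KATP) channels. The rule found 100 genes among the 24091 listed. They were split by symbol into 4 KATP genes, 13 other inward rectifiers, 40 voltage-gated pore subunits, 12 auxiliary subunits, 12 calcium- or sodium-activated channel genes, 14 two-pore channel genes and 5 remaining genes, of which *Kcnq1ot1*, *Kcnd3os*, *Kcnmb4os1* and *Kcnmb4os2* are transcripts from the strand opposite a channel gene and *Kcnrg* encodes a regulator of voltage-gated channels. The study asked how islet cells depend on integrin β1, a receptor for extracellular matrix encoded by *Itgb1*, and sequenced RNA of islets from 4 control and 4 *Itgb1* mutant mouse samples on the C57BL/6 background at 6 weeks of age. The controls carried the genotype label wild-type. In the mutants, per the study's methods, a Cre recombinase driven by *Ngn3* (*Ngn3-Cre*) deleted floxed *Itgb1* in endocrine progenitors. *Ngn3* is also active outside the pancreas, in gut and brain. The islets of each library were pooled before RNA isolation after perfusion of the pancreas with collagenase P, and nothing in the labels ties a library to 1 animal, so that the spread below is between libraries and may be partly technical.

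Potassium channels set the membrane potential of islet cells. In beta cells, glucose metabolism closes KATP channels, the cell depolarizes, calcium enters and insulin is released, while voltage-gated and calcium-activated potassium channels end each burst of action potentials. The KATP channel of endocrine cells pairs a Kir6.2 pore, encoded by *Kcnj11*, with the sulfonylurea receptor *Abcc8*, whereas pericytes and vascular smooth muscle use the related pair *Kcnj8*, the Kir6.1 pore, and *Abcc9*. Each pair lies side by side on 1 chromosome. On GRCm38, *Kcnj11* (chr7:46097123-46100764) and *Abcc8* (chr7:46104523-46180033) were 3758 bases apart, and *Kcnj8* (chr6:142564839-142571356) and *Abcc9* (chr6:142587862-142702274) were 16505 bases apart, all 4 on the minus strand.

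The 8 libraries held 35110802 to 67614688 counts on genes, or 35.1 to 67.6 M counts. They fell into 3 deep libraries (controls 2 and 3 and mutant 3, at 62.2 to 67.6 M) and 5 at 35.1 to 41.0 M, a division that the labels do not name. *Itgb1*, the targeted gene, was measured at 315 to 432 CPM (counts relative to library size, after TMM scaling) in controls and at 193 to 266 in mutants, with a log2 fold change of -0.75 (SE 0.15, edgeR adjusted p = 0.256) and no overlap between the groups (p = 0.0286 by an exact permutation test, two-sided, which cannot give a lower value with 4 libraries a group). All 8 beta cell markers, all 5 alpha cell markers and all 4 delta cell markers were detected in every library, and each of these 17 had a lower mean in mutants, by a median log2 fold change of -0.84, -0.97 and -0.95. With the 5 less deep libraries alone, these medians were 0.11, -0.14 and -0.69, so that the beta cell median turned. The summed beta cell markers ranged from 32466 to 173539 CPM in controls and from 31761 to 49355 in mutants. The 10 acinar markers summed to 3559 CPM in control 2 and 11116 in control 3 against at most 763 in the other libraries. The 10 pericyte and fibroblast markers summed to 314 to 479 CPM in controls and 670 to 785 in mutants, with a higher mean in mutants for 9 of 10 and a median log2 fold change of 1.25. In bulk RNA, fewer cells of a type and less RNA per cell cannot be told apart.

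Of the 100 channel genes, 72 had enough counts to be tested among 15233 genes, and 28 did not. No channel gene passed the threshold of adjusted p below 0.05 and fold above 2 in edgeR's quasi-likelihood test (background over all genes tested, 0%). At unadjusted p below 0.05, 3 channel genes had a higher mean in mutants, *Abcc9*, *Kcne4* and *Kcnt2*, where 6.4% of all genes did, and 12 a lower mean, where 6.89% did. The median log2 fold change was -0.15 over the 72 channel genes, 26 with a higher and 46 with a lower mean in mutants, and 0.0015 over all genes tested. With scaling to total counts alone, these medians were 0.016 and 0.15, a shift shared by the channel genes and all genes. DESeq2 gave an adjusted p below 0.05 to 1 channel gene (background 2.04%), and none past the fold of 2.

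**Figure D1:**
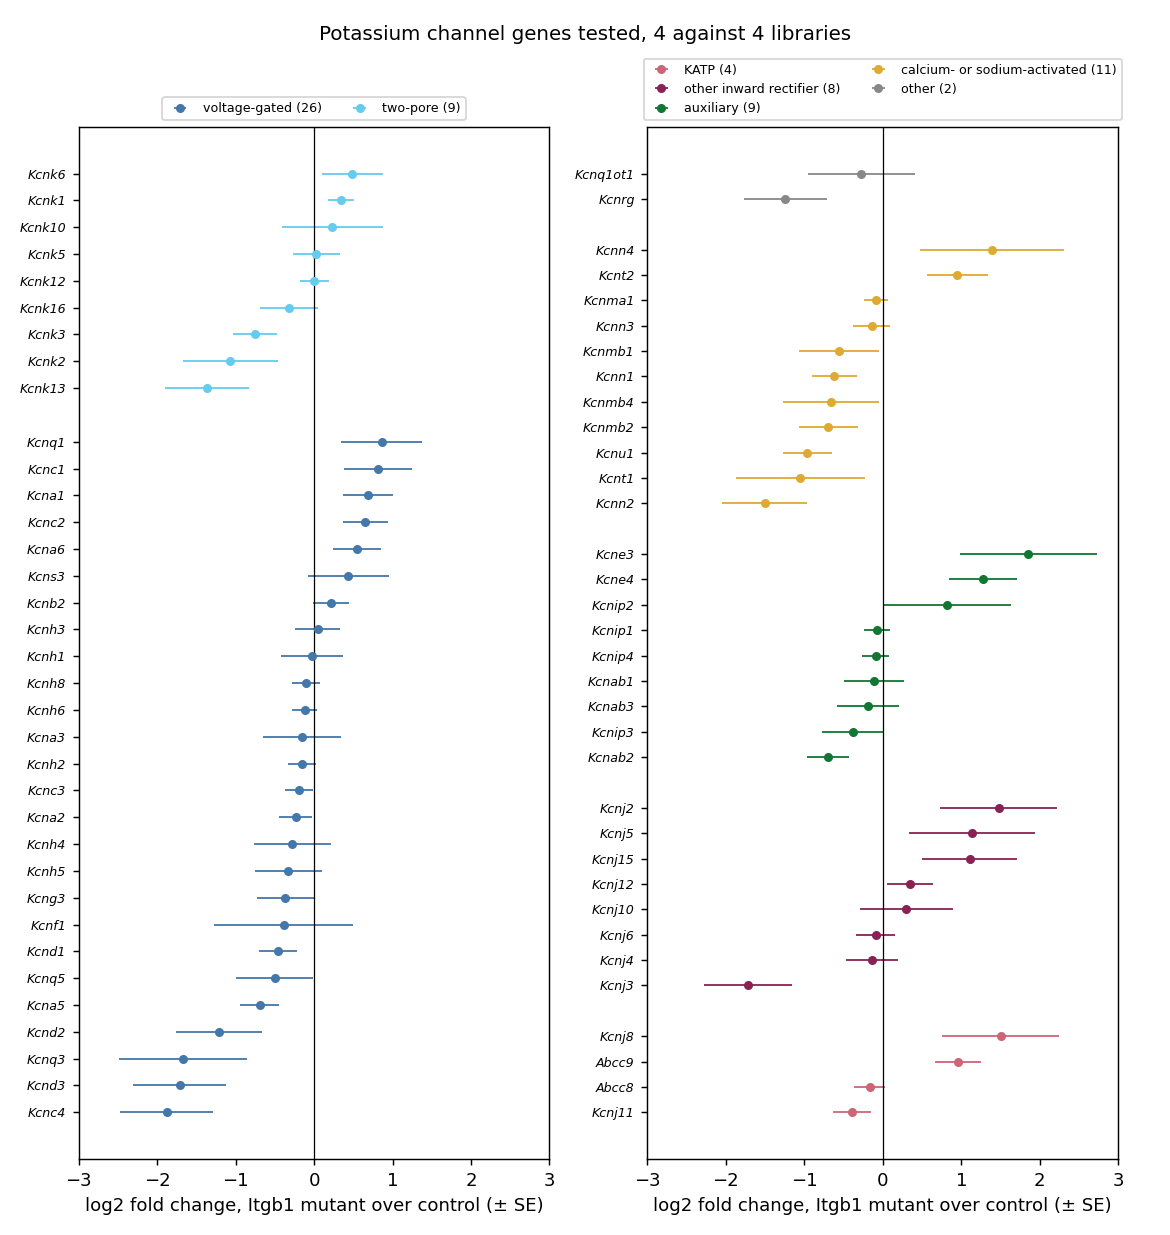
Log2 fold change of *Itgb1* mutant over control (x axis) for 69 of the 72 tested channel genes (y axis), coloured by class with the number drawn. Lines show a standard error derived from the F statistic of edgeR. *Kcne3* stands highest at 1.85 and *Kcnc4* lowest at -1.88.

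The 4 KATP genes did not move together. The endocrine pair had slightly lower means in mutants and overlapped between the groups, whereas the vascular pair had higher means in mutants, by 0.96 (SE 0.29) on the log2 scale for *Abcc9* and 1.50 (SE 0.74) for *Kcnj8*, and neither passed edgeR's adjusted threshold. The promoters of the vascular pair are shown because these neighbouring genes had higher means together. They run from 250 bases before to 50 bases after the start of transcription in RefSeq, on build GRCm38.p6, and are written 5′ to 3′ along the gene, with capitals at matches to the motifs searched. *Kcnj8* spans chr6:142571565-142571864 on the minus strand, from a RefSeq start beyond the gene's end in the count table. *Abcc9* spans chr6:142702225-142702524 on the minus strand.
Kcnj8: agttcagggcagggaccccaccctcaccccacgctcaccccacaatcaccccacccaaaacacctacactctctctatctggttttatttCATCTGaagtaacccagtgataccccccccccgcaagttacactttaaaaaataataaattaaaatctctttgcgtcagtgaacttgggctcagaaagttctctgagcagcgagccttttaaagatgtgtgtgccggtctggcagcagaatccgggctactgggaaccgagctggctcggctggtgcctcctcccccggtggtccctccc
Abcc9: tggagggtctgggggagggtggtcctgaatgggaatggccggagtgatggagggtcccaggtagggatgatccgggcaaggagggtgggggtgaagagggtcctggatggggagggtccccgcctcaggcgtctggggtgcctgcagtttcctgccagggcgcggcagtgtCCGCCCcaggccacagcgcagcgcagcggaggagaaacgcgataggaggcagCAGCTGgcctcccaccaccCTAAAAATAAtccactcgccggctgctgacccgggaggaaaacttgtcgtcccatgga

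The motifs searched, on both strands, were the E-box, written CANNTG, the core ACGTG, which overlaps the E-box where CACGTG occurs and then matches on each strand, the GC box, written GGGCGG, the CCAAT box, the TATAAA box, the CArG box and the MEF2 site. The *Kcnj8* window held 1 E-box, CATCTG, and no other match, with a GC content of 53.3% and 9 CpG sites. The *Abcc9* window held 1 E-box, CAGCTG, 1 GC box read on the opposite strand as CCGCCC, and 1 MEF2 site, with a GC content of 65.7% and 16 CpG sites. Among all 32851 RefSeq promoter windows, 72.3% held an E-box, 35.7% a GC box and 3.19% a MEF2 site, and the median GC content was 52.7%. These matches describe the letters only.

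*Kcnj11* was measured at 121, 270, 146 and 173 CPM in controls 1 to 4 and at 123, 147, 156 and 115 CPM in mutants 1 to 4. *Abcc8* was measured at 832, 1222, 1255 and 1360 CPM in controls and 890, 1174, 1213 and 883 CPM in mutants. Both genes overlapped between the groups, with control 2 highest for *Kcnj11* and control 4 highest for *Abcc8*. The log2 fold change was -0.39 (SE 0.24, edgeR adjusted p = 0.473) for *Kcnj11* and -0.17 (SE 0.19, edgeR adjusted p = 0.701) for *Abcc8*. In the 5 libraries below 50 M counts, where control 1 and control 4 stand against mutants 1, 2 and 4, it was -0.20 and -0.16. Per kilobase of transcript, the scale on which genes can be compared, the ratio of the *Abcc8* level to the *Kcnj11* level was 4.49 ± 1.14 (SD, n = 4) in controls and 4.94 ± 0.20 (SD, n = 4) in mutants, and the mutant range lay inside that of the controls.

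*Kcnj8* was measured at 7.58, 1.13, 1.03 and 11.7 CPM in controls and 13.2, 17.9, 10.2 and 19.1 CPM in mutants. Controls 2 and 3 were low, and the groups overlapped only in that control 4 exceeded mutant 3. Its edgeR adjusted p was 0.401. With 1 library left out, the log2 fold change ran from 1.15 without control 3 and 1.16 without control 2 to 2.23 without control 4. *Abcc9* was measured at 21.0, 10.2, 11.4 and 26.1 CPM in controls and 35.8, 33.8, 32.0 and 31.9 CPM in mutants. Every mutant library exceeded every control library for *Abcc9*, and its edgeR adjusted p was 0.353. *Abcc9* was the 1 tested channel gene with all mutants above all controls, where 4.4% of all genes tested showed this.

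Within the libraries above 50 M counts, mutant 3 exceeded the mean of controls 2 and 3 by 2.77 on the log2(CPM + 0.5) scale for *Kcnj8* and 1.52 for *Abcc9*. Within the 5 others the log2 fold change was 0.79 and 0.52 in edgeR (adjusted p = 0.147 and 0.106). With a term for the division, it was 1.67 for *Kcnj8* and 0.90 for *Abcc9* in edgeR (adjusted p = 0.224 and 0.165). DESeq2 with the same term gave adjusted p = 0.0115 for *Kcnj8* and 0.00558 for *Abcc9*, and DESeq2 within the 5 libraries gave 0.0264 and 0.00359. Both genes are in general use as markers of pericytes. Of the 10 pericyte and fibroblast markers, 7 were higher in mutants at unadjusted p below 0.05: *Pdgfrb*, *Cspg4*, *Acta2*, *Dcn*, *Lum*, *Col1a1* and *Col3a1*. *Pdgfra* (log2 fold change 1.21), *Notch3* (0.12) and *Rgs5* (-0.26) were not among them. Within the 5 libraries, *Notch3* had 0.60 and *Rgs5* 0.74. The sum of all 10 was higher in every mutant than in every control, and their median log2 fold change was 0.99 within the 5 libraries. Controls 2 and 3, the lowest libraries for both *Kcnj8* and *Abcc9*, had pericyte and fibroblast sums of 350 and 479 CPM, against 412 and 314 in controls 1 and 4. *Rgs5* weighed heavily in these sums, at 213 and 254 CPM in controls 2 and 3 and 102 and 97.5 in controls 1 and 4. Among controls, *Rgs5*, *Acta2* and *Notch3* were highest in controls 2 and 3, and *Pdgfrb*, *Pdgfra*, *Dcn* and *Col1a1* were lowest there. The remaining markers did neither. The 8 endothelial markers, 6 with a lower mean in mutants, summed to 787 to 927 CPM in controls and 736 to 875 in mutants. The part of these cells in the *Kcnj8* and *Abcc9* values was not tested.

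Set on the scale of CPM per kilobase, the vascular pair was a small part of the KATP transcripts. *Kcnj8* made up 4.64 ± 4.45% (SD, n = 4) of the 2 pore transcripts in controls, from 0.593% to 8.77%, and 13.9 ± 4.35% (SD, n = 4) in mutants, from 8.54% to 19.1%. *Abcc9* made up 0.931 ± 0.487% (SD, n = 4) of the 2 receptor transcripts in controls and 1.96 ± 0.375% (SD, n = 4) in mutants, where the lowest mutant, at 1.58%, lay just above the highest control, at 1.51%. *Abcc8* and *Kcnj11* held most of the KATP transcripts in every library.

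**Figure D2:**
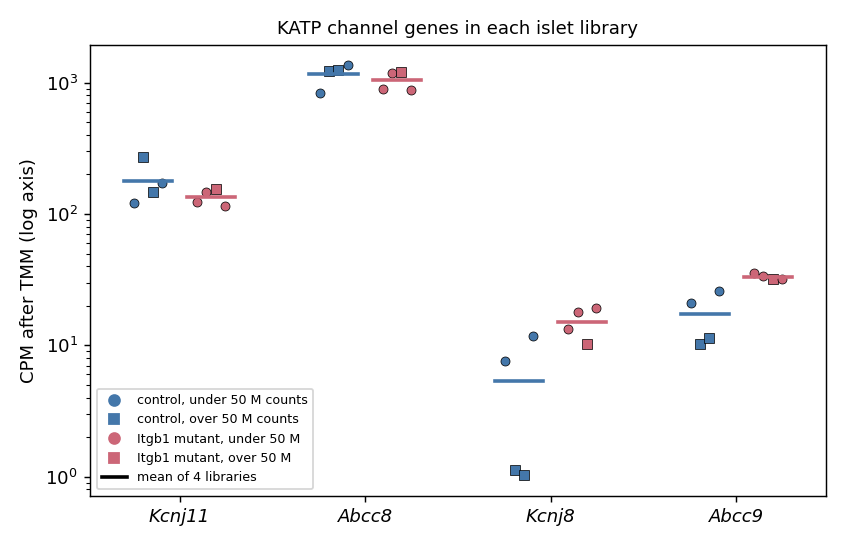
CPM after TMM scaling on a log axis (y) for the 4 KATP genes (x) in each library, as circles below and squares above 50 M counts, with bars at the means of the 4 control and the 4 *Itgb1* mutant libraries. *Kcnj11* and *Abcc8* overlap between the groups, and for *Abcc9* the 4 mutants, at 31.9 to 35.8 CPM, lie above the 4 controls, at 10.2 to 26.1 CPM.

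The order of levels in control islets was led by endocrine channel genes. *Abcc8* had the highest level, 231 ± 45.8 CPM per kilobase (SD, n = 4). It was followed by *Kcnk16*, a two-pore background channel found mainly in the pancreas, at 101 ± 31.1, and by *Kcnj11* at 54.6 ± 20.1. *Kcnip1*, a calcium-binding partner of Kv4 channels, came next at 31.9 ± 7.32, then *Kcnmb2*, a β subunit of the large-conductance calcium-activated channel, at 27.1 ± 15.2. *Kcnk1*, a two-pore channel, and *Kcnh2*, the HERG channel, stood level at 24.0 ± 2.52 and 24.0 ± 2.10. *Kcnh6*, a relative of *Kcnh2*, reached 17.9 ± 2.17. *Kcnma1*, the pore of the large-conductance channel, reached 13.7 ± 0.690.

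Among neighbours from *Abcc8* down to *Kcnh6*, the ranges over the 4 control libraries were apart between *Abcc8* and *Kcnk16* and between *Kcnh2* and *Kcnh6*, and overlapped between the others. The first 3 ranks were held by the same genes in mutants. Below them, *Kcne4* stood at rank 14 in controls and rank 10 in mutants, *Kcne3* at rank 23 and rank 13, *Kcnj2* at rank 25 and rank 16, and *Kcnk3* at rank 11 and rank 15.

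**Figure D3:**
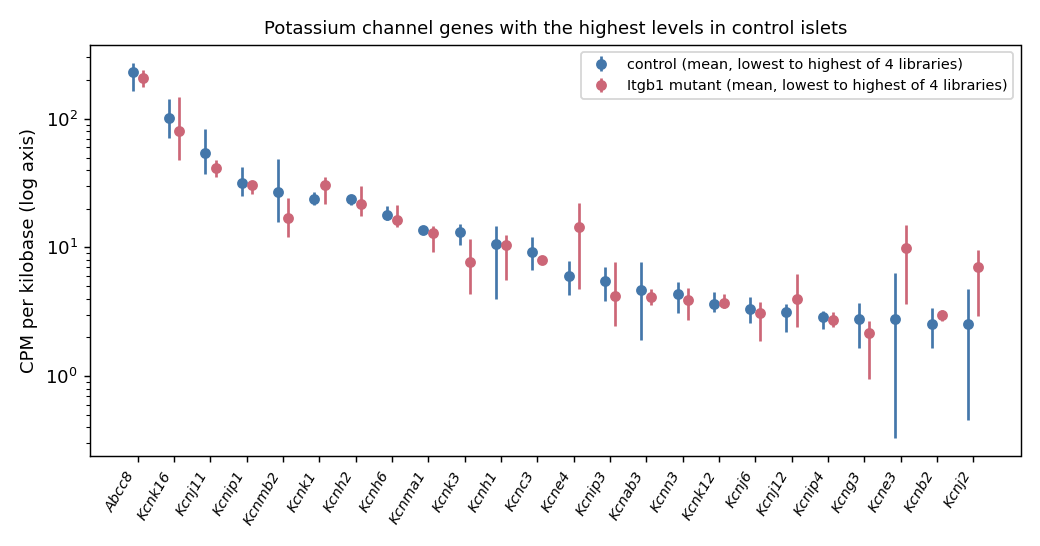
Level in CPM per kilobase on a log axis (y) of 24 of the 25 channel genes highest in controls (x), with points at the mean and lines from the lowest to the highest of 4 control or 4 *Itgb1* mutant libraries. *Abcc8* leads at 231 in controls, and *Kcne4*, *Kcne3* and *Kcnj2* have the mutant mean visibly above the control mean, with overlapping lines.

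Of the 13 other inward rectifiers, 8 were tested, 5 with a higher and 3 with a lower mean in mutants. *Kcnj2*, a strong inward rectifier of muscle and many other cells, was measured at 23.0, 3.93, 2.47 and 25.7 CPM in controls and 37.0, 48.5, 16.0 and 51.6 CPM in mutants. Controls 2 and 3 were low, as for *Kcnj8*, and mutant 3 was the lowest mutant, below controls 1 and 4. The log2 fold change was 1.48 (SE 0.74, edgeR adjusted p = 0.408), and 0.90 within the 5 libraries. There, DESeq2 gave an adjusted p of 2.21e-05 and edgeR one of 0.0812. *Kcnj3*, a subunit of G protein-gated inward rectifiers, was measured at 2.21, 3.25, 10.8 and 2.53 CPM in controls and 1.09, 1.68, 2.01 and 0.925 CPM in mutants. All mutants lay below all controls, with control 3 far above the others, and the log2 fold change was -1.71 (SE 0.56, edgeR adjusted p = 0.353). It was -0.90 without control 3 and -0.95 within the 5 libraries. *Kcnj6*, the partner subunit, overlapped between the groups, from 18.4 to 29.3 CPM in controls and from 13.4 to 26.8 in mutants, with a log2 fold change of -0.09 that turned to 0.02 under scaling to total counts. *Kcnj12*, close in sequence to *Kcnj2*, had a log2 fold change of 0.35 in all 8 libraries together and -0.07 within the 5. *Kcnj15*, present at 0.076 to 0.668 CPM in controls and 0.565 to 1.23 in mutants, had one of 1.11 (SE 0.61, edgeR adjusted p = 0.431), and of 0.17 within the 5.

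Of the 40 voltage-gated genes, 29 were tested, 9 with a higher and 20 with a lower mean in mutants and a median log2 fold change of -0.19. At unadjusted p below 0.05, 0 were higher and 5 lower, where 6.4% and 6.89% of all genes were. *Kcnh2* was measured at 98.5 to 119 CPM in controls and 88.7, 90.0, 139 and 81.6 CPM in mutants, and *Kcnh6* at 48.3 to 62.1 CPM in controls and 44.9, 43.3, 63.4 and 42.6 CPM in mutants. Both ERG-type genes were highest of all libraries in mutant 3 and below every control in the other 3 mutants. Their log2 fold changes were -0.15 and -0.12, and turned to 0.01 and 0.05 under scaling to total counts. Within the 5 libraries, *Kcnh2* had -0.26, with a DESeq2 adjusted p of 0.0428 and an edgeR adjusted p of 0.129.

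*Kcnc4*, a fast-inactivating Kv3 channel, was low, at 0.934, 1.09, 2.77 and 1.03 CPM in controls and 0.113, 0.385, 0.355 and 0.735 CPM in mutants, without overlap, and had a log2 fold change of -1.88 (SE 0.59, edgeR adjusted p = 0.353), with -1.26 within the 5 libraries. *Kcna5*, a delayed rectifier, also had all mutants below all controls, at 2.55 to 4.67 CPM in controls and 1.96 to 2.35 CPM in mutants, with a log2 fold change of -0.69. They and *Kcnj3* were among 4 tested channel genes with all mutants below all controls, where 3.8% of all genes showed this.

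*Kcnd3*, a Kv4 channel of fast transient currents, had 1.24 to 4.98 CPM in controls and 0.385 to 1.45 in mutants, with the highest mutant above the lowest control and a log2 fold change of -1.71 (SE 0.59), of -1.05 without control 3 and of -0.93 within the 5 libraries. *Kcnf1*, a silent subunit that forms channels only with a Kv2 partner, depended on the libraries. It was measured at 0.571, 4.42, 7.71 and 0.501 CPM in controls and 1.85, 4.09, 0.827 and 3.37 CPM in mutants. Controls 2 and 3 were high where the other 2 controls were low. Its log2 fold change was -0.39 over all libraries, 1.10 with the division term and 2.52 within the 5 libraries, while the difference of mutant 3 from the mean of controls 2 and 3 was -2.26 on the log2(CPM + 0.5) scale.

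Of the 12 auxiliary genes, 9 were tested, 3 with a higher and 6 with a lower mean in mutants. The 2 KCNE genes tested had higher means, and their values ran in the same libraries as those of *Kcnj8* and *Kcnj2*. *Kcne4*, whose protein inhibits several voltage-gated channels, was measured at 18.9, 10.5, 10.6 and 19.2 CPM in controls and 37.1, 39.9, 11.7 and 54.1 CPM in mutants. Mutants 1, 2 and 4 exceeded every control, and mutant 3 lay between the controls. The log2 fold change was 1.27 (SE 0.43, edgeR adjusted p = 0.353), 0.84 with the division term and 1.20 within the 5 libraries. *Kcne3*, which holds KCNQ1 channels open in epithelia, was measured at 6.62, 1.0, 0.570 and 10.8 CPM in controls and 21.1, 15.2, 6.23 and 25.7 CPM in mutants. Mutant 3 lay below 2 controls, 1 and 4. It had a log2 fold change of 1.85 (SE 0.87, edgeR adjusted p = 0.389), with 1.24 within the 5 libraries. DESeq2 within these 5, with 2 controls against 3 mutants, gave an adjusted p of 6.61e-08 for *Kcne4* and 0.000941 for *Kcne3*. The edgeR adjusted p within the 5 was 0.0739 and 0.111. In that DESeq2 fit, 11.8% of all genes tested had an adjusted p below 0.05.

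The summed markers of ductal epithelium were also lowest in controls 2 and 3, though *Cftr* among them was not. *Spp1* and *Krt7* gave most of that sum in every library. The ductal sum was highest in mutant 1, and *Kcne3*, *Kcne4* and *Kcnj2* were highest in mutant 4. The 6 ductal markers summed to 1596, 496, 276 and 981 CPM in controls and to 2946, 1581, 1048 and 1827 CPM in mutants, where 5 of 6 had a higher mean, and the sums overlapped between the groups. The pericyte and fibroblast sums given above did not overlap. The part of ductal cells, or of pericytes and fibroblasts, in the *Kcne3*, *Kcne4* and *Kcnj2* values was not tested. Windows of the same kind as above are shown for *Kcnj2* (chr11:111065914-111066213) and *Kcne4* (chr1:78816661-78816960), both on the plus strand. Both genes had higher means in mutants and their lowest values in controls 2 and 3, as did *Kcne3*, whose windows are not printed.
Kcnj2: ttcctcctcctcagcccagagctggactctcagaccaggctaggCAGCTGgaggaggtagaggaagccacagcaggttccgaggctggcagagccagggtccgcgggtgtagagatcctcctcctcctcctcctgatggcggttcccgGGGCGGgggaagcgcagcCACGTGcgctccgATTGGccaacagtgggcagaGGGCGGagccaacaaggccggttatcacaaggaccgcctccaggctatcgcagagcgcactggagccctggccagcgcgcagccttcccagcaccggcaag
Kcne4: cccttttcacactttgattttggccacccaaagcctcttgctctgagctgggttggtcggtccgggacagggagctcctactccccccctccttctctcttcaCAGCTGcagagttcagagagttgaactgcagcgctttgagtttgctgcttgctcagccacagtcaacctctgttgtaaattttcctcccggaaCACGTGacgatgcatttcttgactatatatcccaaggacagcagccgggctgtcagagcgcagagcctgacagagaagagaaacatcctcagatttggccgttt

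The *Kcnj2* window held 2 E-boxes, of which 1 reads CAGCTG and the other CACGTG, 2 GC boxes, and 1 CCAAT box read on the opposite strand as ATTGG. The *Kcne4* window also held these 2 E-boxes, and in both windows CACGTG gave the 2 matches to ACGTG, 1 on each strand. ACGTG was present in 19.6% of all promoter windows and in 17.3% of the 98 windows found for 73 of the channel genes. The CArG box was in 1.63% of all windows and in 0 of those 98.

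The other auxiliary genes tested encode KChIP and Kvβ subunits, and the median log2 fold change of the class was -0.09 with all 8 libraries and 0.56 with the 5 below 50 M counts. *Kcnip1* overlapped between the groups, at 73.6 to 122 CPM in controls and 75.9 to 94.3 in mutants, with a log2 fold change of -0.07 (SE 0.17) that turned to 0.08 under scaling to total counts. Its gene overlaps *Kcnmb1*, and reads shared between them could not be assigned. *Kcnip3* had 13.6 to 25.3 CPM in controls and 8.68 to 27.5 in mutants, and a log2 fold change of -0.38. *Kcnab2*, which overlaps *Nphp4*, was at 3.04 to 6.31 CPM in controls and 2.72 to 3.18 in mutants, with a log2 fold change of -0.70 (SE 0.27). *Kcnip2* was measured at 1.17, 5.27, 2.72 and 2.96 CPM in controls and 6.08, 5.10, 0.310 and 9.94 CPM in mutants. Mutant 3 was the lowest of all 8 libraries for *Kcnip2*, and the log2 fold change was 0.82 (SE 0.82) over all libraries and 1.76 within the 5.

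**Figure D4:**
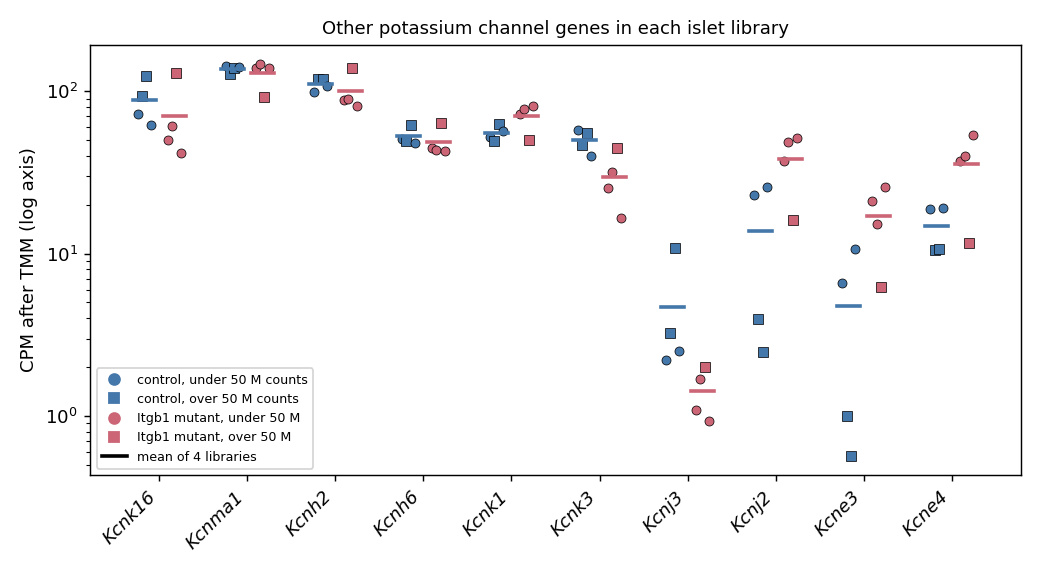
CPM after TMM scaling on a log axis (y) for 10 further channel genes (x) in each library, with circles below and squares above 50 M counts and bars at the means of 4 libraries. The squares of controls 2 and 3 lie lowest for *Kcnj2*, *Kcne3* and *Kcne4*, all 4 mutants lie below all controls for *Kcnj3*.

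Of the 12 calcium- or sodium-activated genes, 11 were tested, 2 with a higher and 9 with a lower mean in mutants, and the median log2 fold change was -0.62. That median was -0.35 with the division term and -0.011 within the 5 libraries. *Kcnma1* was measured at 143, 127, 138 and 141 CPM in controls and 139, 147, 92.3 and 138 CPM in mutants. Only mutant 3 stood apart, below all other libraries, and the log2 fold change was -0.09 (SE 0.15, edgeR adjusted p = 0.798), turning to 0.05 under scaling to total counts. *Kcnmb2*, its β subunit, was at 46.1, 81.1, 141 and 48.2 CPM in controls and 35.4, 48.8, 70.4 and 41.0 CPM in mutants. Its higher values fell on the libraries above 50 M counts in both groups, and the log2 fold change was -0.69 over all libraries and -0.18 within the 5.

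*Kcnn3*, a small-conductance calcium-activated channel, had 23.8 to 41.5 CPM in controls and 21.1 to 37.1 in mutants, with a log2 fold change of -0.14 in all 8 libraries together and 0.35 within the 5. *Kcnn2*, of the same family, was at 1.40, 5.03, 8.0 and 1.79 CPM in controls and 1.28 to 1.77 CPM in mutants, with -1.50 (SE 0.54) over all libraries and -0.29 within the 5. Controls 2 and 3 stood above all other libraries for *Kcnn2*. *Kcnu1*, known as a sperm channel, was at 5.99, 6.31, 9.27 and 5.13 CPM in controls and 2.53, 2.96, 5.48 and 2.70 CPM in mutants. Mutant 3 exceeded control 4 alone, and the log2 fold change was -0.96 (SE 0.31, edgeR adjusted p = 0.353) over all libraries and -1.03 within the 5. There, DESeq2 gave an adjusted p of 0.000248 and edgeR one of 0.0766. *Kcnt2*, a sodium-activated channel, was below 1 CPM in every library, with a log2 fold change of 0.95 (SE 0.39).

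Of the 14 two-pore genes, 9 were tested, 5 with a higher and 4 with a lower mean in mutants, and their median log2 fold change was 0.0045. *Kcnk16* was measured at 72.3, 94.0, 124 and 62.2 CPM in controls and 50.1, 61.1, 130 and 41.7 CPM in mutants. It was highest in mutant 3 and control 3, and its log2 fold change was -0.32 (SE 0.37, edgeR adjusted p = 0.702). *Kcnk3*, an acid-sensitive background channel, had 57.5, 46.7, 55.0 and 40.1 CPM in controls and 25.2, 31.9, 44.5 and 16.5 CPM in mutants, and mutant 3 alone reached the control range. The log2 fold change was -0.75 (SE 0.28, edgeR adjusted p = 0.353), and -1.0 within the 5 libraries, where the edgeR adjusted p was 0.138 and that of DESeq2 0.00964. *Kcnk1* had the opposite order, at 52.2, 49.2, 62.5 and 57.1 CPM in controls and 72.1, 77.4, 50.3 and 80.8 CPM in mutants. Mutants 1, 2 and 4 lay above every control, and the log2 fold change was 0.34 (SE 0.16, edgeR adjusted p = 0.389). Within the 5 libraries it was 0.49, where the edgeR adjusted p was 0.0739 and that of DESeq2 3.3e-05. *Kcnk13* was at 0.620 to 3.62 CPM in controls and 0.502 to 0.949 in mutants, with -1.36 (SE 0.54) over all libraries and -0.20 within the 5.

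Of the 5 remaining genes, *Kcnq1ot1*, the imprinted RNA made from the strand opposite *Kcnq1*, was measured at 369, 91.3, 52.2 and 263 CPM in controls and 239, 162, 38.5 and 201 CPM in mutants. It was lowest in the 3 libraries above 50 M counts, and its log2 fold change was -0.28 (SE 0.68) over all libraries, -0.74 with the division term and -0.66 within the 5. Counting at default settings uses no strand, and reads that fall on exons of both *Kcnq1* and *Kcnq1ot1* are left out of both counts. *Kcnrg*, which overlaps *Dleu2*, was below 1 CPM in every library, with a log2 fold change of -1.24 (SE 0.53, edgeR adjusted p = 0.368).

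The 28 channel genes not tested reached at most 36 counts in any library, for *Kcna4*. *Kcnk18*, a two-pore channel of sensory neurons, and *Kcnv1*, a silent subunit of brain, had 0 counts in all 8 libraries, which allows up to 3 counts in each, or 0.0444 to 0.0854 CPM, by counting error alone. *Kcng2*, another silent subunit, was named after its values were seen. It had 0, 1, 1 and 1 counts in controls and 10, 14, 2 and 10 in mutants. The groups did not overlap, but all controls and mutant 3 lay below 3 counts, within counting error. How many other untested genes did not overlap was not computed.

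The division of the libraries by depth changed how many genes stood apart, over all genes tested as well as among the channel genes. With a term for it, 6 channel genes were higher and 11 lower at unadjusted p below 0.05 in edgeR (background 8.3% and 6.21%). Within the 5 libraries, 13 were higher and 11 lower of 74 tested (background 12.7% and 10.6%), and 33 of 74 did not overlap between the groups (background 43.1%), with 2 controls against 3 mutants. No channel gene had an edgeR adjusted p below 0.05 in either fit. DESeq2 with the division term gave an adjusted p below 0.05 to 8 channel genes (background 4.56%). Among them, *Abcc9*, *Kcne3*, *Kcne4*, *Kcnj2* and *Kcnj8* rose by that fit, and *Kcnq1ot1* and *Kcnu1* fell. DESeq2 within the 5 libraries gave such a p to 15 channel genes (background 11.8%), all 8 among them, and 5 of the 15, *Kcne3*, *Kcne4*, *Kcnf1*, *Kcnip2* and *Kcnu1*, had a fold above 2. These fits share libraries, and the alternatives with DESeq2 were added after the values were seen.

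**Figure D5:**
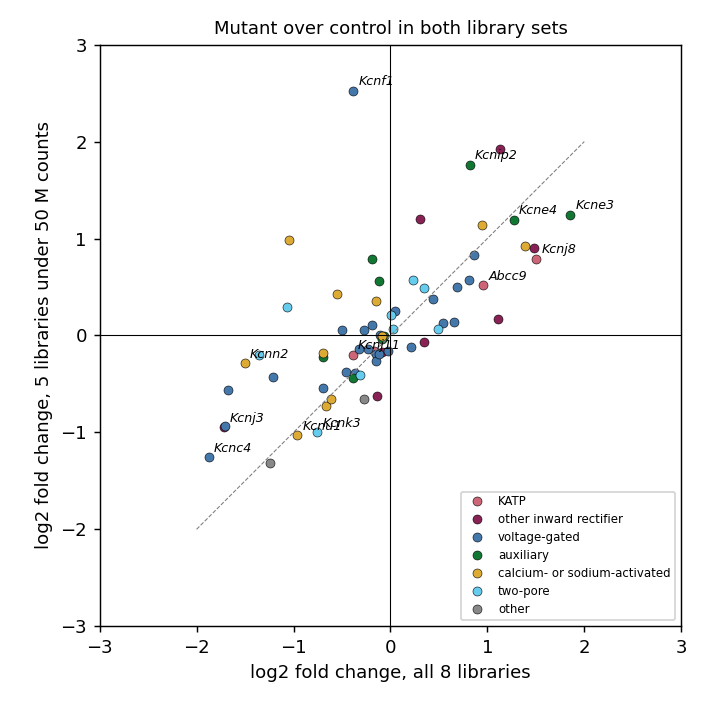
Log2 fold change of *Itgb1* mutant over control over all 8 libraries (x axis) and within the 5 libraries below 50 M counts (y axis) for 69 of the 72 channel genes, coloured by class, with a dashed line of equal values. *Kcnf1*, at -0.39 and 2.52, lies farthest from the line, and *Kcnu1* and *Kcnk3* lie near it on the lower side. The 2 axes share libraries.

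Other genes of the same pathway were read from 2 lists. Of 30 genes that couple glucose to secretion, 1 had a higher and 7 a lower mean in mutants at unadjusted p below 0.05 (background 6.4% and 6.89%). Within the 5 libraries, 4 were higher and 15 lower (background 12.7% and 10.6%). *Ffar1*, a fatty acid receptor of beta cells, was at 21.2 to 24.2 CPM in controls and 29.3 to 40.3 in mutants, without overlap (log2 fold change 0.52, SE 0.13). *Cacnb2*, a β subunit of calcium channels, was at 50.6 to 93.2 CPM in controls and 35.2 to 45.4 in mutants, without overlap (log2 fold change -0.79, SE 0.21). *Slc2a2*, the glucose transporter of beta cells, was at 40.1, 185, 335 and 31.0 CPM in controls and 16.0 to 43.8 CPM in mutants, with a log2 fold change of -2.49 in all 8 libraries together and -0.79 within the 5. By DESeq2, *Ffar1* rose (adjusted p = 0.0353), and *Cacnb2* (adjusted p = 0.0385) and *Slc2a2* (adjusted p = 0.0167) fell. The edgeR adjusted p was 0.353 for each.

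Of 18 genes for partners of potassium channels, 15 were tested, with 0 higher and 3 lower at unadjusted p below 0.05 (background 6.4% and 6.89%). *Dpp10* and *Dpp6* encode single-pass partners that traffic Kv4 channels such as that of *Kcnd3* to the membrane. *Dpp10* was at 12.6, 40.1, 66.7 and 10.1 CPM in controls and 2.83, 4.79, 5.95 and 2.30 CPM in mutants, and *Dpp6* at 18.0, 37.3, 67.9 and 14.7 CPM in controls and 10.4, 8.28, 7.87 and 7.52 CPM in mutants. All mutants lay below all controls for both, with controls 2 and 3 highest. The log2 fold change was -3.03 (SE 0.65) for *Dpp10* and -2.02 (SE 0.46) for *Dpp6*, and both fell by DESeq2 (adjusted p = 8.5e-05 and 0.00149) while the edgeR adjusted p was 0.291 and 0.324. Within the 5 libraries, it was -1.79 for *Dpp10* and -0.91 for *Dpp6*. *Rapgef4*, a cyclic AMP sensor that binds the sulfonylurea receptor, was at 105 to 202 CPM in controls and 82.8 to 99.9 CPM in mutants, with a log2 fold change of -0.77 (SE 0.23, edgeR adjusted p = 0.353).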

How the data were processed

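RNA of pooled islets was sequenced after ribosomal RNA depletion (KAPA RNA HyperPrep with RiboErase), single-ended. Per the study's methods, the authors trimmed reads with Trimmomatic and FASTP, used STAR to align them to mm10 (GRCm38), and ran featureCounts with its default settings, which use no strand and leave out reads shared by overlapping genes. The deposited table holds raw counts per gene, used here as deposited, with gene length and coordinates. The submitters' processing notes also name edgeR. A table of the authors' own comparison (fold changes, test statistics, p-values and CPM) was not used. It numbers its libraries partly in another way, and the library numbers here are those of the count table, which match the sample titles.

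The groups were read from the genotype and title labels. Genes were filtered with filterByExpr, scaled by TMM and fitted in edgeR 4.0.16 (R 4.3.3) with genotype alone, because the methods mention a batch term without naming batches. The quasi-likelihood test was adjusted by Benjamini-Hochberg over all genes tested, and a call needed adjusted p below 0.05 and fold above 2. Each SE was derived as the absolute log2 fold change divided by the square root of that test's F statistic. Alternatives were DESeq2 1.42.0, the likelihood ratio test, other scalings and filters, a replicate block, a term for the libraries above 50 M counts, the 5 libraries below, and each library left out. Total counts of 35.1 to 67.6 M give a floor of 3 counts, at most 0.0854 CPM per library; floors cover counting error only. The steps were tested on simulated data.

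Named with values were the KATP genes, per class the 3 highest in controls per kilobase and the 3 with the smallest p, and genes called by any fit of the whole table. The members and lists were chosen with earlier results of these data known. Promoters came from RefSeq (GRCm38.p6), matched by symbol for 73 of the 100 genes. The values of 3 members are not reported here, though all counts include them.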

Additional observations from a re-analysis of the deposited data

Results flagged for a closer look

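A library that stands far from the other 3 of its group by Dixon's test was found in 9 of 70 groups of 4 examined, 12.9% of them. For independent normal values, chance gives about 1 in 20. The test was run on CPM without a log, and the groups share libraries, so an excess over chance cannot be read from it. In mutant 3, 5 genes stood apart: *Kcnh2* at 139 CPM, *Kcnh6* at 63.4, *Kcnu1* at 5.48 and *Kcnn2* at 1.77 were above the other mutants, and *Kcnma1* at 92.3 was below them. In control 3, *Kcnj3* at 10.8 CPM, *Kcnc4* at 2.77 and *Kcnd3* at 4.98 were above the other controls. In mutant 1, *Kcnd3* at 1.45 CPM was above the other mutants. Control 3 was also the library with the highest acinar marker sum, 11116 CPM. Whether that moves with the 3 channel values was not tested.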

How the results depend on the processing

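Of the 34 channel genes named by rule, 25 kept their direction under every alternative that could be run for them (30 of the 34 passed the stricter filter) and 9 did not. Members higher at unadjusted p below 0.05, 3 as reported, numbered 8 with DESeq2, 6 with the likelihood ratio test, 6 without the low count filter, 6 with the division term, 13 in the 5 libraries and 1 to 8 with a library left out (8 without control 1, 5 without control 3, 8 without control 4, 7 without mutant 3, 1 without mutant 4). Members lower, 12 as reported, numbered 7 with total counts and 6 to 14 with a library left out (7 without control 3, 7 without mutant 1, 6 without mutant 2). Members past adjusted p below 0.05, 0 as reported, numbered 1 with DESeq2, 8 with DESeq2 and the division term and 15 with DESeq2 in the 5 libraries, with 0, 3 and 5 past the fold as well. Members without overlap, 5 as reported, numbered 33 in the 5 libraries and 6 to 22 with a library left out (13 without control 1, 8 without control 3, 13 without control 4, 22 without mutant 3). Over all genes tested, 43.1% did not overlap in the 5 libraries. For the counts with a library left out, here and above, no such share was computed, and they cannot be set against all genes. Directions turned with total counts for *Kcnj6* (0.021), *Kcnh2* (0.012), *Kcnh6* (0.049), *Kcnip1* (0.080), *Kcnma1* (0.055) and *Kcnn3* (0.049). In the 5 libraries they turned for *Kcnj12* (-0.067), *Kcnn3* (0.35) and *Kcnf1* (2.52), and with DESeq2 there to -0.066, 0.35 and 2.53. *Kcnf1* also turned to 1.10 with the division term, 1.21 with DESeq2 and that term, and 0.37 with the replicate block. With a library left out, log2 fold changes spanned -0.19 to 0.087 for *Kcnj6*, -0.17 to 0.086 for *Kcnip1*, -0.16 to 0.040 for *Kcnma1*, -0.59 to 0.24 for *Kcnq1ot1* and -0.75 to 0.45 for *Kcnf1*. The cause was not tested. The replicate numbers were not taken to pair the samples in the main fit, since nothing in the labels ties them. Deviations of same-numbered libraries correlated by 0.423, -0.0127, 0.457 and 0.254, above 0.1 in 3 pairs of 4. Those 3 controls correlated best with their own number, and control 2 with mutant 4 (0.18). These correlations do not speak against a pairing, and they cannot settle whether there was one. With the replicate block, 7 members were higher and 11 lower at unadjusted p below 0.05, and 0 passed the adjusted threshold. Depth limits the 28 genes not tested.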
